A study of Mus musculus with 8 samples.

Results

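A set of 10 genes of TNF receptor signalling and cell survival was examined for chromatin accessibility in mouse macrophages: Traf1, Traf2, Birc2, Birc3, Cflar, Malt1, Bcl2l1, Bcl2l11, Mcl1 and Tnfrsf1b. The peaks of all 8 libraries were merged wherever they shared at least 1 base, and a merged region was assigned to a gene when that gene's body was the nearest protein-coding one within 100 kb on the GRCm38 assembly. This gave 93 regions for the 10 genes, of 87260 regions in all. The genes were chosen by name and not by a rule on a measured value, but with earlier results of these data known.

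The study used ATAC-seq, in which a transposase cuts accessible DNA in nuclei and stretches with many cuts are called as peaks. Macrophages were grown from mouse bone marrow for 7 days in medium conditioned by L929 cells, a fibroblast line that secretes M-CSF (25% of the volume). There were 4 groups of 2 libraries each, described by the submitters as biological replicates. These were Wild Type macrophages (WT) left untreated, WT macrophages given Escherichia coli lipopolysaccharide (LPS, 0.3 ng/ml) for 2 h, Nfat5 KO macrophages (KO) left untreated, and KO macrophages given the same LPS for the same time. NFAT5 is a transcription factor that drives the response of cells to high salt. All groups shared the same culture, with no LPS in the untreated ones. No label gives the deleted part of Nfat5, the kind of allele or the age of the mice, and peak positions do not check the genotype.

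TNF receptor 2, the product of Tnfrsf1b, binds the adaptor TRAF2, which joins with TRAF1 and brings in the ubiquitin ligases cIAP1 (Birc2) and cIAP2 (Birc3). Their ubiquitin chains feed the NF-kB pathway, and c-FLIP (Cflar) and the cIAPs hold back caspase-8 and cell death, while MALT1 carries signals from CARD proteins to the same pathway. At the mitochondrion BCL-XL (Bcl2l1) and MCL1 keep the cell alive and BIM (Bcl2l11) opposes them; LPS acts on macrophages through TLR4 and NF-kB, and several of these genes, Birc3 and Traf1 among them, are textbook NF-kB targets.

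The sequences below are the RefSeq promoters (GRCm38.p6, 250 bases before to 50 bases after the start site, 5′ to 3′ on the gene's strand) of 5 genes on which the results turn, and show how much of each promoter was already called. Capitals mark bases that lay inside a called peak in every one of the 8 libraries. The table held 13 promoters for 9 of the 10 genes. The windows were chr4:145246821-145247120 for Tnfrsf1b, chr2:34961723-34962022 for Traf1, chr2:25546891-25547190 for Traf2 and chr9:7873121-7873420 for Birc3, all on the minus strand, and chr2:128127325-128127624 on the plus strand for the inner start site of Bcl2l11.
Tnfrsf1b: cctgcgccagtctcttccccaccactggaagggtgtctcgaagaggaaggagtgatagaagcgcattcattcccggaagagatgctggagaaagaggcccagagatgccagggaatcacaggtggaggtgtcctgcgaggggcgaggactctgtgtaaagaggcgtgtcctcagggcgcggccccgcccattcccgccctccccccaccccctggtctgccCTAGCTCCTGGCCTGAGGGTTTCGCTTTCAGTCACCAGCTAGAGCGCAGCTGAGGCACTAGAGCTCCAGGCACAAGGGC
Traf1: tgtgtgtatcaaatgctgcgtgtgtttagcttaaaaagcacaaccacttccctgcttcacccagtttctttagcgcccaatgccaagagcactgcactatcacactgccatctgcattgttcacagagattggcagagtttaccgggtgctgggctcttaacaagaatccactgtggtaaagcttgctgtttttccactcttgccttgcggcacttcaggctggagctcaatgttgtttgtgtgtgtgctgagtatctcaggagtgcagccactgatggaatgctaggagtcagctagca
Traf2: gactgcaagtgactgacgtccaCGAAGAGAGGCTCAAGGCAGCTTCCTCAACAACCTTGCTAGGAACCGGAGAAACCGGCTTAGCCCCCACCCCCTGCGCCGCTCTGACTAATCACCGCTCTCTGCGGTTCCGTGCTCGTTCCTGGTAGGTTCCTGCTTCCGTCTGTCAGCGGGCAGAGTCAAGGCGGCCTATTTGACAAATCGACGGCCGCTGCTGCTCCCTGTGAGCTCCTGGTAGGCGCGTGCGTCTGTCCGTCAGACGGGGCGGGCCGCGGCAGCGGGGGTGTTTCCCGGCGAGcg
Birc3: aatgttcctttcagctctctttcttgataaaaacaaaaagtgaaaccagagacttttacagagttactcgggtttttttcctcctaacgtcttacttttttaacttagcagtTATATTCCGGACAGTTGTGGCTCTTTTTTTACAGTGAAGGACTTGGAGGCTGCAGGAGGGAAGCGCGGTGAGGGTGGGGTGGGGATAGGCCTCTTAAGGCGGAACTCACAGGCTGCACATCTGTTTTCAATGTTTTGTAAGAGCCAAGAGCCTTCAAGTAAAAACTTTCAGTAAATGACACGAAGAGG
Bcl2l11: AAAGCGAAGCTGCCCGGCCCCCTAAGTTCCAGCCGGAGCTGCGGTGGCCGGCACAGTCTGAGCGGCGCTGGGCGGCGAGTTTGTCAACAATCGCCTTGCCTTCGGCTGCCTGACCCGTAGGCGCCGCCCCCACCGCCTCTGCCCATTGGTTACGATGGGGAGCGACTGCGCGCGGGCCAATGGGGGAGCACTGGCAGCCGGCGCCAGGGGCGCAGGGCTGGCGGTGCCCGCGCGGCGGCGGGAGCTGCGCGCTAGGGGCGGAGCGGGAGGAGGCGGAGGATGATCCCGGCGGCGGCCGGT

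Called sequence filled these promoters to different extents. The bases called in every library numbered 300 of 300 at Bcl2l11, 276 at Traf2, 188 at Birc3, 79 at Tnfrsf1b and 0 at Traf1. The Traf1 start site lay in a region called in 1 library only, WT untreated 1, at 291 bases. Both strands of the 13 promoters were searched for letters bound by the factors of these pathways, as a description. The strict kB letters, GGGA, any 2 bases and TTCC (in 1.47% of all 32851 promoters), the AP-1 letters TGANTCA (7.81%), the NFAT5 core TGGAAANNT (5.44%) and the PU.1 letters GAGGAAGT (3.2%) were in none of them. The wider NF-kB consensus, which overlaps the strict kB letters and was in 4.51% of all promoters, had 1 match, GGGGGTCTCC at bases 9 to 18 of the Bcl2l1 promoter chr2:152830668-152830967, 242 bases before the start site.

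The 8 lists held 54027 to 60117 peaks covering 26.2 to 31.2 Mb. They give positions only, with no read counts or scores, so the depth is unknown, and chromatin at a site with no called peak was not shown to be closed. A peak present in some of the cells and a weaker peak in all of them cannot be told apart. All 10 macrophage marker genes examined had regions. Of markers of other cells, 5 of 7 T cell, 4 of 8 B cell, 7 of 8 neutrophil, 8 of 8 dendritic cell, 4 of 8 erythroid and 7 of 8 fibroblast or stroma genes had regions too. Those with none were Cd3e, Cd8a, Cd79a, Cd79b, Pax5, Blk, Elane, Gata1, Hba-a1, Epor, Alas2 and Lum. As a share of the regions called in a library, B cell genes held 0.27‰ to 0.307‰ untreated and 0.166‰ to 0.249‰ with LPS, and T cell genes 0.169‰ to 0.198‰ and 0.13‰ to 0.16‰. The ranges overlapped for neutrophil (0.144‰ to 0.186‰ and 0.13‰ to 0.166‰), dendritic cell (0.469‰ to 0.55‰ and 0.406‰ to 0.516‰), erythroid (0.153‰ to 0.18‰ and 0.142‰ to 0.19‰) and fibroblast genes (0.18‰ to 0.222‰ and 0.19‰ to 0.32‰). Of the 25 fibroblast regions, 4 were called in both WT libraries with LPS and in neither untreated one (16.0%, against 3.96% of all regions). They lay at 2 genes, and 1 region had the opposite order in WT (4.0%, against 5.06%). In KO 2 regions had the first order (8.0%, against 2.56%) and 2 the opposite one (8.0%, against 4.07%). The median LPS difference in called sequence of the 5 genes tested was 0.32 in WT and 0.18 in KO on the log2 scale. The part of such cells in the results was not tested.

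The 10 genes carried 3 to 15 regions each, with a median of 9.5 per gene against 3 over the 16569 genes that had any. Bcl2l1 had 15, Malt1 and Tnfrsf1b 14 each, Cflar 11, Birc3 10, Bcl2l11 9, Mcl1 7, Traf1 6, Birc2 4 and Traf2 3. Of the 93 regions, 55 lay inside or over a gene and 38 outside, up to 87.1 kb away. All 8 libraries called 33 of them (35.5%, against 41.3% of all regions), and a single library called 15 (16.1%, against 20.1%).

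LPS went with more called regions at these genes in both genotypes. The untreated libraries called 51 and 49 of the 93 regions in WT and 50 and 46 in KO. With LPS the WT libraries called 78 and 69 and the KO libraries 60 and 57. The groups with and without LPS did not overlap, and both WT libraries with LPS lay above both KO ones. Over all regions the ranges overlapped, with 63.6% to 67.7% called in untreated libraries and 60.4% to 64.4% with LPS, and the lower range was that with LPS. There too the WT libraries with LPS (64.4% and 62.1%) called more than the KO ones (61.6% and 60.4%). The heat map of called width shows where in each gene the difference lay.

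**Figure D1:**
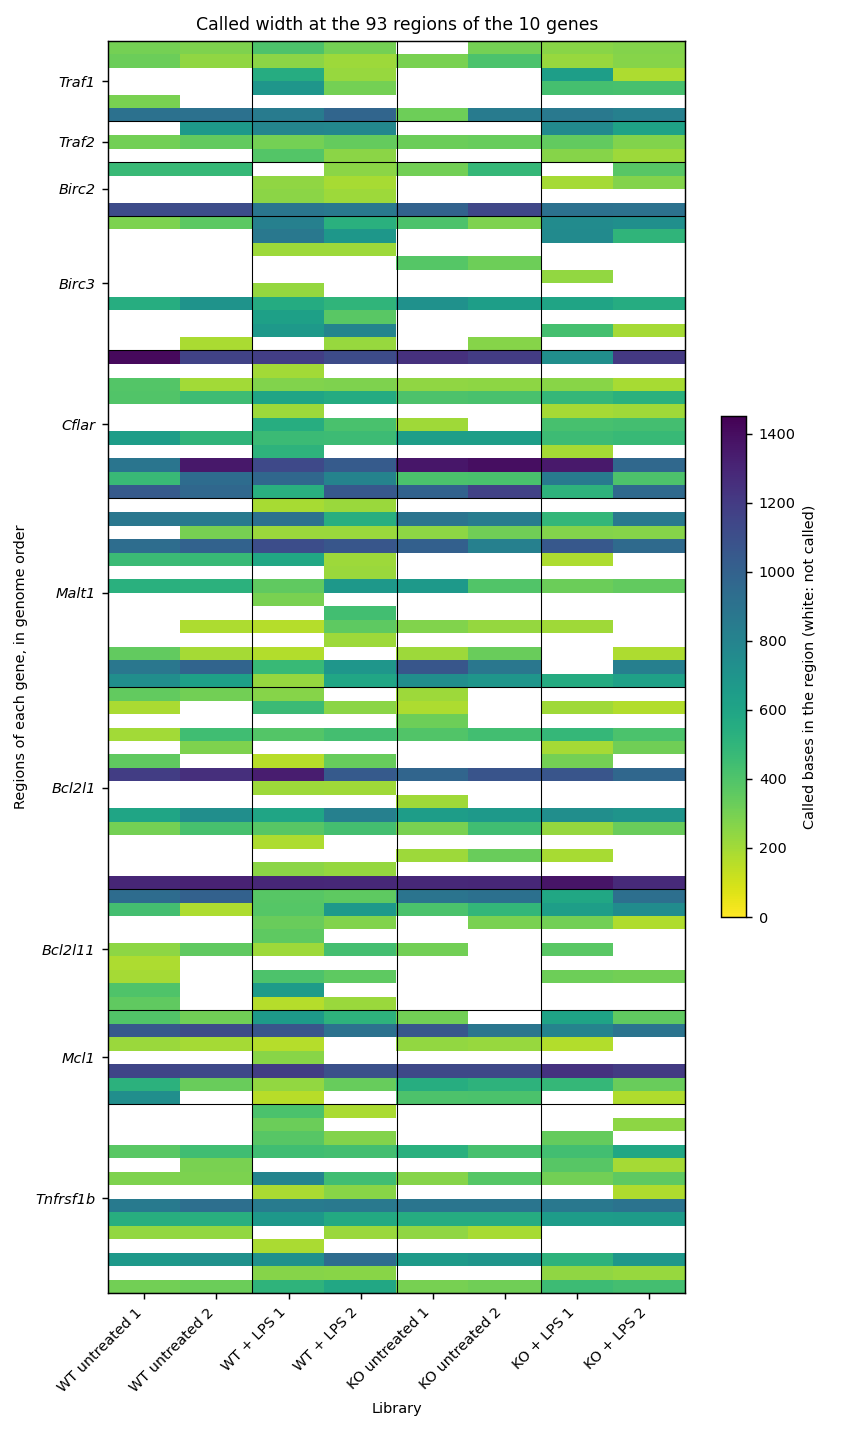
Called bases (colour; white where no peak was called) at the 93 regions of the 10 genes, in rows in genome order within each gene, over the 8 libraries in columns. Blocks coloured only in columns with LPS are seen at Traf1, Traf2, Birc2, Birc3 and Tnfrsf1b, while the 33 regions called in all 8 libraries run across the whole row.

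A region was counted as gained with LPS when both libraries with LPS called it and neither untreated library did, and as lost in the opposite case. In WT 18 of the 93 regions were gained, which is 19.4% against 3.96% of all regions, and 0 were lost against 5.06% of all. The 18 lay at 9 genes, all but Mcl1. In KO 12 were gained (12.9%, against 2.56%), at 8 genes, all but Malt1 and Mcl1, and 2 were lost (2.15%, against 4.07%), at Birc3 and Tnfrsf1b. In both genotypes 7 regions were gained (7.53%, against 1.10%): 2 at Traf1, 2 at Birc3 and 1 each at Traf2, Birc2 and Tnfrsf1b. None was lost in both (0.928% of all). With 2 libraries against 2 the smallest exact p is 0.333, so these counts carry no test. Among only the 27013 widest peaks of each list, which left 47 regions at these genes, 8 were gained in WT (4.61% of all regions) and 9 in KO (3.74%), so the larger number in WT was not seen there. Of the 18 WT and 12 KO gains of the full lists, 2 and 3 were gained there too: the Birc3 region 15.1 kb from its start site in both genotypes, the Birc3 region 23.0 kb before it in WT, and in KO the Traf2 region inside the gene and the Traf1 region 3.01 kb from the start site. Without WT with LPS 2, when 1 library with LPS decides, the WT count was 28, and 8.61% of all regions were then gained.

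**Figure D2:**
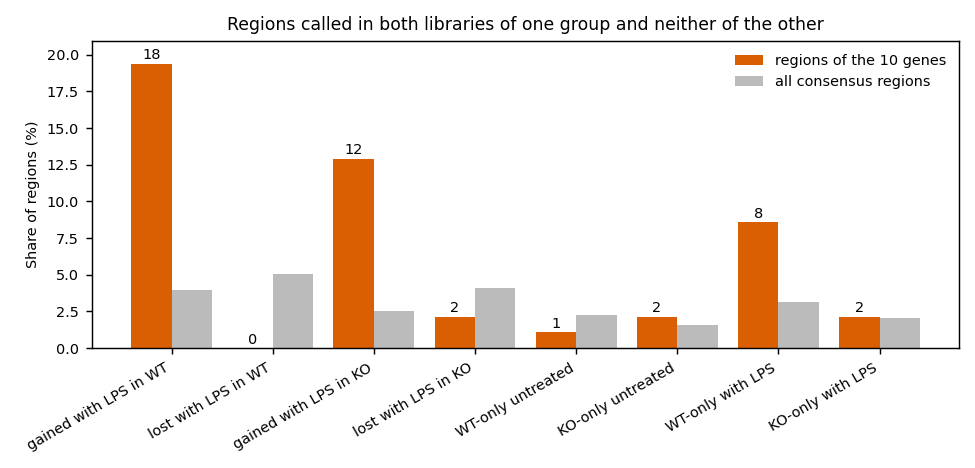
Share of regions (%) in each kind of call, for the 93 regions of the 10 genes (orange, with their number above the bar) and for all 87260 regions (grey). The orange bars stand above the grey ones for regions gained with LPS in WT (18) and in KO (12) and for regions called only in WT with LPS (8), and below them for regions lost with LPS.

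No gained region covered a listed start site. None of the 22 gained in either genotype whose gene had a start-site entry covered one, while 8 of 29 such regions called in all libraries did. The same share over all gained regions was not counted. By median distance from a start site the gained regions were not set apart. It was 11.7 kb for the 17 WT-gained regions with an entry and 7.32 kb for the 7 gained in both genotypes. For the 29 called in all libraries it was 10.7 kb. The 18 regions gained in WT were narrower (median 393.5 bases) than the regions called in all libraries (913 bases). That order was also seen over all regions (363 and 741 bases). The 7 gained in both genotypes had a median width of 697 bases, against 431 for all regions gained in both.

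At Tnfrsf1b, the TNF receptor 2 gene on chromosome 4, 4 regions were gained in WT. The region 5.75 kb before the start site, chr4:145252621-145252886, was called at 262 and 257 bases in WT with LPS and at 242 and 224 bases in KO with LPS. No untreated library called it. The region chr4:145209138-145209547, beyond the gene's end, was called at 410 and 186 bases in WT with LPS and in no other library. Just past the gene's end, chr4:145211948-145212346 was called at 377 and 267 bases in WT with LPS and at 344 bases in KO with LPS 1 only. Inside the gene, chr4:145229139-145229432 was called at 185 and 257 bases in WT with LPS and at 174 bases in KO with LPS 2 only.

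The other gained or lost regions at Tnfrsf1b were counted as such in KO alone. The region chr4:145215210-145215781 was gained in KO, at 374 and 193 bases, and was called in WT untreated 2 (294 bases) but in neither WT library with LPS. The region chr4:145242844-145243138 was lost in KO, from 238 and 189 bases. In WT it was called at 237 and 235 bases untreated and at 219 bases in WT with LPS 2.

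Beside these, a Tnfrsf1b region called in every library was wider in each library with LPS than in each untreated one. How many of all regions split in this way was not counted. At chr4:145254334-145254916, 7.46 kb before the start site, the called width was 306 and 323 bases in WT untreated, 507 and 583 in WT with LPS, 299 and 314 in KO untreated and 458 and 435 in KO with LPS. The difference was 0.91 on the log2 scale in WT (SE 0.15, limma adjusted p = 0.0889) and 0.67 in KO (limma adjusted p = 0.197), neither below 0.05. The same split was seen inside the gene at chr4:145240740-145241432. Its width was 543 and 534 bases in WT untreated and 679 and 569 in WT with LPS. In KO it was 552 and 553 bases untreated and 646 and 655 with LPS. The limma adjusted p was 0.344 in WT and 0.38 in KO. The region over the start site showed no such split, with 665 and 714 bases in WT untreated, 719 and 939 in WT with LPS, 662 and 692 in KO untreated and 513 and 681 in KO with LPS.

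**Figure D3:**
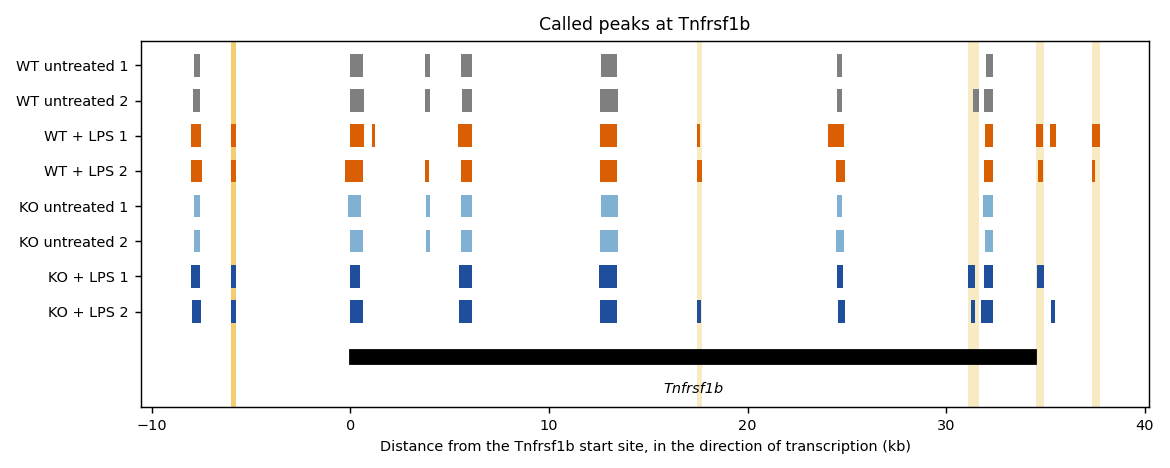
Called peaks (bars, 1 row per library) around Tnfrsf1b (black bar), by distance in kb from its start site in the direction of transcription. Dark yellow marks the region gained with LPS in both genotypes, 5.75 kb before the start site, and pale yellow the regions gained in 1 genotype.

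Traf1, an adaptor that pairs with TRAF2, gained 2 regions inside the gene on chromosome 2 in both genotypes. At chr2:34953755-34954451, 7.32 kb from the start site, the called width was 555 and 224 bases in WT with LPS and 638 and 178 in KO with LPS. At chr2:34957974-34958762, 3.01 kb from the start site, it was 689 and 302 bases in WT with LPS and 426 and 423 in KO with LPS. No untreated library called either region. The region 1.23 kb before the start site, chr2:34962999-34964010, was called in all 8 libraries at 816 to 976 bases in 7 of them and at 321 bases in KO untreated 1.

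Traf2, the adaptor that recruits the cIAPs, had 3 regions. The one 2.56 kb before the start site, chr2:25549496-25549883, was gained in both genotypes, at 388 and 254 bases in WT with LPS and 266 and 215 in KO with LPS. The one inside the gene, chr2:25533951-25534832, 12.1 kb from the start site, was gained in KO at 762 and 617 bases. In WT it was called with LPS at 790 and 778 bases but also in WT untreated 2 at 671 bases, and not in WT untreated 1. The start-site region was called in all 8 libraries at 276 to 347 bases.

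The number of regions called per gene split the same way at both adaptors and the receptor. It was 5 in every library with LPS and 2 to 4 untreated at Traf1, 3 and 1 to 2 at Traf2, and 9 to 12 and 7 to 8 at Tnfrsf1b. Traf1, Traf2 and Tnfrsf1b each had more called regions in every library with LPS than in every untreated one, as did 1.18% of all genes. None of the 10 genes had fewer in every library with LPS, as 2.53% of all genes did. An exact two-sided permutation test over the 8 libraries gave p = 0.0286 for each, the smallest that 4 against 4 allows, and an adjusted p of 0.771 over all 16569 genes, of which 3.71% had an unadjusted p below 0.05.

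Birc3, which encodes the ubiquitin ligase cIAP2 and lies on chromosome 9 beside Birc2, gained 4 regions in WT and 2 in KO. At chr9:7857100-7858112, inside the gene 15.1 kb from the start site, the called sequence was 869 and 682 bases in WT with LPS and 754 and 500 in KO with LPS. At chr9:7896123-7896946, 23.0 kb before the start site, it was 667 and 797 bases in WT with LPS and 430 and 194 in KO with LPS. No untreated library called either region, and at the second both KO values lay below both WT values. How many of all gained regions had that order was not counted.

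The other Birc3 calls were found in 1 genotype. At chr9:7879728-7880351, 6.56 kb before the start site, both WT libraries with LPS held peaks, at 624 and 369 bases. At chr9:7863118-7863421, inside the gene, both WT libraries with LPS held 215 bases. None of the other 6 libraries called either. The region chr9:7868180-7868563, 4.61 kb into the gene, was called only in KO untreated, at 383 and 319 bases, and so counts as lost with LPS in KO.

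Regions called in all 8 libraries stood at both ends of Birc3. The start-site region chr9:7872775-7873517 was 501 to 715 bases wide with the groups overlapping. The region 0.038 kb past the gene's end, chr9:7846518-7847430, was called at 287 and 368 bases in WT untreated, 816 and 531 in WT with LPS, 407 and 280 in KO untreated and 749 and 728 in KO with LPS. Every library with LPS lay above every untreated one, a split whose share over all regions was not counted. The differences of 1.14 (SE 0.276) in WT and 1.26 in KO on the log2 scale had limma adjusted p of 0.171 and 0.193.

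Birc2, which encodes cIAP1, had 4 regions. The region chr9:7824880-7825152, inside the gene 11.7 kb from the start site, was gained in both genotypes at 239 and 190 bases in WT with LPS and 197 and 269 in KO with LPS. The region chr9:7828744-7829110, 7.7 kb from the start site, was called at 251 and 211 bases in WT with LPS and in no other library. At the start site all 8 libraries held a peak, of 995 to 1142 bases untreated and 865 to 908 with LPS. That region was narrower in every library with LPS, the opposite order to the Birc3 end region. How many of all regions were narrower in this way was not counted. The median width over all regions called in every library was also lower with LPS, at 517 to 543 bases against 570 to 590 untreated.

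**Figure D4:**
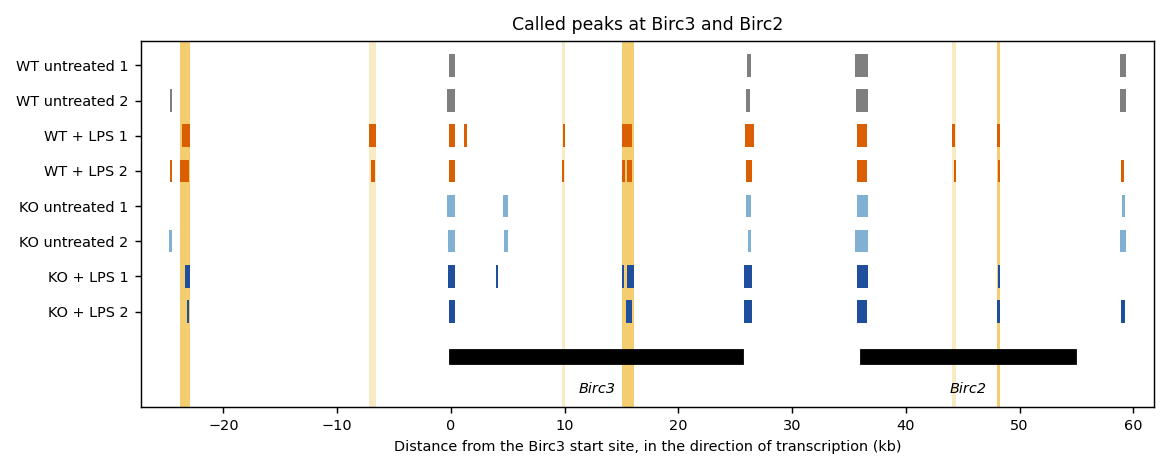
Called peaks (bars, 1 row per library) around Birc3 and Birc2 (black bars), by distance in kb from the Birc3 start site in the direction of transcription. Dark yellow marks the 3 regions gained with LPS in both genotypes and pale yellow the 3 gained in WT alone, while the start sites of both genes were called in every library.

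Cflar, the gene of the caspase-8 inhibitor c-FLIP on chromosome 1, was mostly called throughout, with 7 of its 11 regions in all 8 libraries. The region chr1:58725807-58726355, 14.3 kb into the gene, was gained in WT at 548 and 418 bases. In KO it was called with LPS at 424 and 432 bases and in KO untreated 1 at 209 bases. The region chr1:58724147-58724381 was gained in KO at 195 and 206 bases and was also called in WT with LPS 1 at 215 bases. Both regions were thus called in libraries with LPS of both genotypes. At chr1:58722162-58722798, called in all 8 libraries, the width was 393 and 452 bases in WT untreated, 600 and 559 in WT with LPS, 405 and 415 in KO untreated and 486 and 525 in KO with LPS, each library with LPS above each untreated one. The order was the opposite at chr1:58726933-58727695, also called in all 8 libraries. Its width was 644 and 504 bases in WT untreated and 464 and 455 in WT with LPS. In KO it was 638 and 636 bases untreated and 458 and 472 with LPS. The share of all regions with either split was not counted. The start-site region chr1:58711219-58712803 held 734 to 1412 bases, with the groups overlapping.

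Malt1, the gene of the MALT1 protease on chromosome 18, gained 1 region in WT. It lay 15.9 kb outside the gene (chr18:65414837-65415063) and was called at 188 and 218 bases in WT with LPS and in no other library. The region chr18:65439977-65440565, inside the gene, was called at 459 and 473 bases in WT untreated, 589 and 212 in WT with LPS, 0 in both KO untreated libraries and 179 in KO with LPS 1 only. The region over an end of the gene, chr18:65430151-65431389, held 820 to 1107 bases in all 8 libraries.

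Among the BCL-2 proteins, Bcl2l1 gained 2 regions in WT that no KO library called. At chr2:152825733-152825983, 2.51 kb from a start site, the called width was 251 and 229 bases in WT with LPS. At chr2:152790980-152791204 it was 214 and 207 bases. The region chr2:152781044-152781365 was gained in KO at 198 and 315 bases and was called in WT untreated 2 (280 bases) but in neither WT library with LPS. The region chr2:152820983-152821316 was called in both KO untreated libraries, at 212 and 334 bases, in KO with LPS 1 at 187 bases and in no WT library. The region chr2:152830453-152831848 covered the start sites of the promoters chr2:152830668-152830967 and chr2:152831679-152831978. It held 1277 to 1369 bases in all 8 libraries. The promoter chr2:152828440-152828739, whose start site lay 2.51 kb from the gained region, was called in 0 libraries.

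Bcl2l11, the gene of the pro-apoptotic BIM, gained regions far downstream. The region chr2:128179734-128180263, 17.2 kb past the gene, was gained in WT at 334 and 274 bases. In KO it was called at 306 and 172 bases with LPS and at 289 bases in KO untreated 2. The region chr2:128240731-128241138, 78.2 kb past the gene, was gained in KO at 318 and 306 bases. In WT it was called at 403 and 362 bases with LPS and at 198 bases in WT untreated 1.

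At the inner Bcl2l11 start site, whose promoter was called throughout in every library, WT with LPS stood apart. At chr2:128127163-128128164 the called width was 936 and 998 bases in WT untreated, 375 and 360 in WT with LPS, 892 and 916 in KO untreated and 585 and 923 in KO with LPS. Both WT libraries with LPS lay below the other 6. The share of all regions in which 1 group lay apart in this way was not counted. The LPS difference in WT was -1.28 on the log2 scale (SE 0.213, limma adjusted p = 0.0902). With LPS, KO exceeded WT by 1.04 (limma adjusted p = 0.195), and the LPS effect differed between the genotypes by 1.11 (limma adjusted p = 0.625). The outer start site of the gene lay in a region assigned to its neighbour Acoxl by the nearest-gene rule and is not counted here.

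Mcl1, the short-lived survival protein's gene on chromosome 3, had no gained or lost region. Its start-site region chr3:95658399-95659684 held 1098 to 1238 bases in all 8 libraries, and the region 7.3 kb before it was called in all 8 as well.

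Peak width was compared at the 33 regions called in all 8 libraries, within a fit over all 36009 such regions, after each library was centred on its median width. No region of these genes had a limma adjusted p below 0.05 in any of the 5 comparisons. Over all regions limma called 0.00555% wider and 0.0111% narrower for LPS in WT, 0.0167% wider and 0.00833% narrower for KO against WT with LPS, and none in the other comparisons. At an unadjusted p below 0.05, limma gave 8 of the 33 for LPS in WT (13.6% of all regions), 6 for LPS in KO (11.1%), 0 for KO against WT untreated (6.07%), 2 for KO against WT with LPS (3603 of all 36009) and 1 for the difference between the LPS effects (6.38%). Without the centring, the median region shifted by -0.10 in WT and -0.11 in KO on the log2 scale with LPS.

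Summed over its regions, the called sequence of Birc3 was 834 and 1254 bases in WT untreated, 3981 and 3317 in WT with LPS, 1505 and 1499 in KO untreated and 2768 and 1977 in KO with LPS. Every library with LPS exceeded every untreated one, as at Tnfrsf1b, Traf1 and Traf2. The share of all genes with such a split was not counted. At Birc3 both WT libraries with LPS also exceeded both KO ones, as at Tnfrsf1b, Cflar, Malt1, Bcl2l1 and Bcl2l11. The share of all genes with that order was not counted either. On the scale of log2(bases + 200), the LPS difference in WT was 1.79 (SE 0.206, limma adjusted p = 0.0461 over 14530 genes). Birc3 was the one gene of the 10 past 0.05, and limma called 0.0551% of all genes higher and 0.0688% lower in that comparison. Over 14 other settings the limma adjusted p ran from 0.0426 to 0.231 and was below 0.05 in 1, while the difference lay between 1.28 and 2.04. Leaving out any 1 of the 8 libraries ended the call, with limma adjusted p from 0.0608 (without KO with LPS 1) to 0.231 (without WT untreated 1).

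In KO the LPS difference of Birc3 was 0.74 (limma adjusted p = 0.206). The difference between these LPS effects was -1.05 (SE 0.291, unadjusted p = 0.00885, limma adjusted p = 0.69), and 6.13% of all genes had an unadjusted p below 0.05, so a genotype difference was not shown. Untreated, KO exceeded WT by 0.53 (limma adjusted p = 0.677), and with LPS KO lay below WT by -0.52 (limma adjusted p = 0.383).

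**Figure D5:**
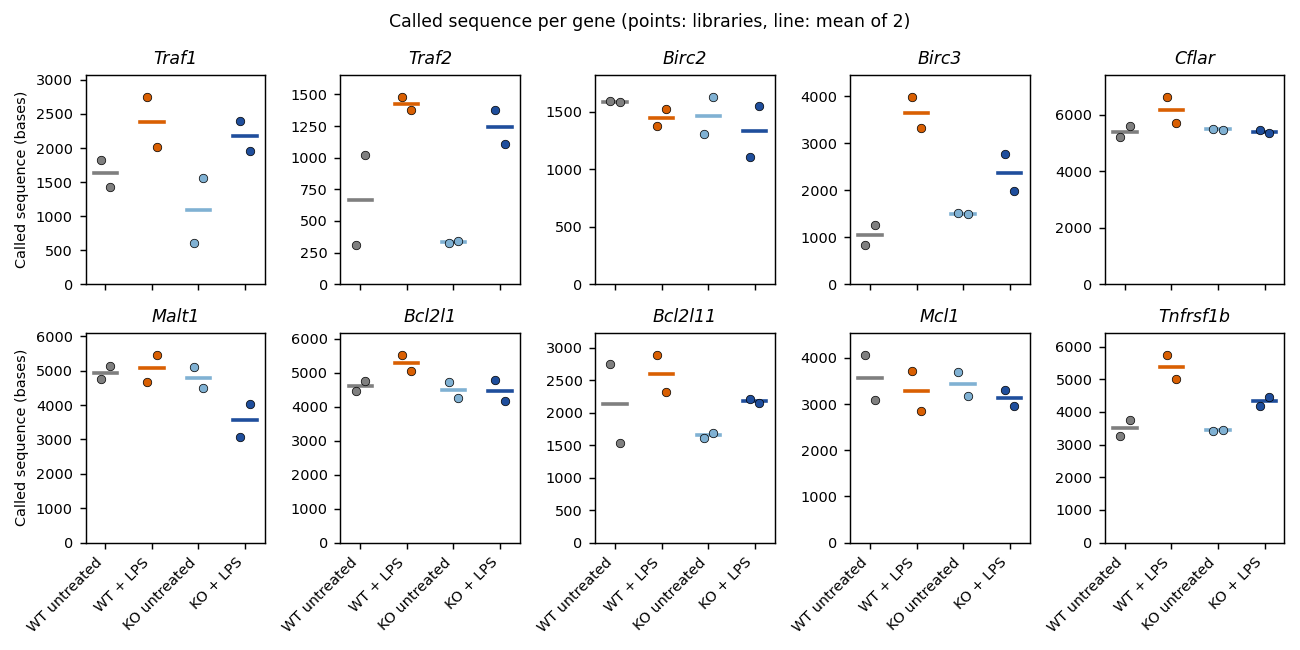
Called sequence (bases summed over a gene's regions) of the 10 genes in the 4 groups; points are libraries and lines the mean of 2. For Birc3, Tnfrsf1b, Traf1 and Traf2 every library with LPS lies above every untreated one. The share of all genes with this split was not counted. For Birc3 and Tnfrsf1b the WT points with LPS lie above the KO points with LPS, as for Cflar, Malt1, Bcl2l1 and Bcl2l11. The share of all genes with this order of WT and KO was not counted either.

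Tnfrsf1b had the next lowest adjusted p. Its called sequence was 3251 and 3750 bases in WT untreated, 5733 and 5022 in WT with LPS, 3428 and 3437 in KO untreated and 4194 and 4452 in KO with LPS. The LPS differences were 0.74 in WT (limma adjusted p = 0.0655) and 0.48 in KO (limma adjusted p = 0.15). At Traf2 the values were 309 and 1018 bases in WT untreated, 1479 and 1374 in WT with LPS, 328 and 339 in KO untreated and 1374 and 1108 in KO with LPS. The spread between the WT untreated libraries was large, and the differences of 1.19 in WT and 1.59 in KO had limma adjusted p of 0.204 and 0.152.

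The other 7 genes did not pass either. Traf1 held 1831 and 1430 bases in WT untreated, 2749 and 2015 in WT with LPS, 611 and 1562 in KO untreated and 2404 and 1950 in KO with LPS, with LPS differences of 0.63 in WT and 1.15 in KO. In WT the LPS difference was 0.45 for Bcl2l11, 0.33 for Bcl2l1, 0.32 for Cflar, 0.17 for Malt1, 0.03 for Mcl1 and 0.02 for Birc2. All 10 differences were above 0 in WT and 9 of 10 in KO, against 51.7% and 51.5% of all genes. Without the centring these counts were 8 and 5. The median difference was 0.39 in WT and 0.32 in KO, against 0.01 over all genes in both. Without the centring it was 0.25 in WT and 0.16 in KO, against -0.13 and -0.15 over all genes.

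For LPS in KO limma called 0 of all 14530 genes, where 13.2% had an unadjusted p below 0.05, 4 of the 10 genes among them. Malt1 was the gene below 0 there, at -0.26 (limma adjusted p = 0.533). Its called sequence was 5098 and 4488 bases in KO untreated and 3078 and 4041 in KO with LPS, against 4751 and 5129 in WT untreated and 4680 and 5445 in WT with LPS.

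The genotypes were compared directly within each treatment. Among untreated libraries 1 region, at Malt1, was called in both WT and neither KO library (background 2.23%), and 2, at Birc3 and Bcl2l1, in both KO and neither WT library (1.60%). With LPS 8 regions were called only in WT (8.6%, against 3.17% of all regions) and 2 only in KO (2.15%, against 2.03%). The 2 KO ones, at Bcl2l1 and Tnfrsf1b, were also called in 1 WT untreated library each. Among the 27013 widest peaks of each list 1 of 47 regions was called only in WT with LPS (2.13%, against 2.95% of all). Without WT with LPS 2 the count was 17, with 8.36% of all regions called so.

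Of the 8 WT ones, 7 were also gained with LPS in WT, at Birc2, Birc3, Malt1, Bcl2l1 and Tnfrsf1b. The remaining 1, at Bcl2l11 (chr2:128249642-128250074), was called at 160 and 217 bases in WT with LPS and at 353 bases in WT untreated 1. Of the 11 regions gained in WT and not in KO, 7 were called in 0 KO libraries with LPS, 2 in 1 and 2 in both. Over all regions 46.3% of 2495 such regions were called in 0. Of the WT-gained regions 38.9% were also gained in KO, against 27.8% over all regions, and of the KO-gained ones 58.3% were also gained in WT, against 42.9%.

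In called sequence per gene, 0 of the 10 genes passed 0.05 by limma between genotypes, where 1 had an unadjusted p below 0.05 untreated (6.99% of all genes) and 2 had with LPS (12.1%). Over all genes limma called 0.0138% higher in KO untreated, and 0.0688% higher and 0.0275% lower in KO with LPS. With LPS, the difference KO minus WT was below 0 at 9 genes and above 0 at 1, Mcl1 (0.01), while 7258 of all 14530 genes were above 0. The lowest were -0.52 at Birc3 and -0.42 at Malt1 (limma adjusted p = 0.362). The number of regions called per gene separated the genotypes at none of the 10, with an exact unadjusted p below 0.05 at 0 of them and at 1.08% of all genes.

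The wider pathway was described by a list of 28 other genes of TNF receptor and NF-kB survival signalling, 27 of which had regions, 177 in all. In WT 11 of these were gained (6.21%, against 3.96% of all regions) and 9 lost (5.08%, against 5.06%). In KO 5 were gained (2.82%, against 2.56%) and 6 lost (3.39%, against 4.07%), so that all but the WT gains lay near the share of all regions. In called sequence, 0 of the 27 genes passed 0.05 by limma, where 4 had an unadjusted p below 0.05 for LPS in WT (14.9% of all genes) and 5 for LPS in KO (13.2%). Tnfaip3, which encodes the NF-kB inhibitor A20, held 6 of the 11 WT gains and 3 of the 5 KO gains. Its called sequence was 7547 and 7328 bases in WT untreated, 10860 and 8400 in WT with LPS, 7778 and 7104 in KO untreated and 9309 and 7619 in KO with LPS. The LPS difference was 0.50 in WT (limma adjusted p = 0.153).

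A further list held 20 other genes of the BCL-2 family and apoptosis execution, 19 with regions, 102 in all. In WT 13 were gained (12.7%, against 3.96% of all regions) and 6 lost (5.88%, against 5.06%). In KO 9 were gained (8.82%, against 2.56%) and 3 lost (2.94%, against 4.07%). Of 17 genes tested, 0 passed 0.05 by limma, where 3 had an unadjusted p below 0.05 for LPS in WT (14.9% of all genes) and 5 for LPS in KO (13.2%). Bcl2a1b, a survival gene known as an NF-kB target, held 2018 and 2044 bases in WT untreated, 3593 and 3406 in WT with LPS, 2056 and 2423 in KO untreated and 3078 and 3171 in KO with LPS. The LPS difference was 0.87 in WT (limma adjusted p = 0.0593) and 0.61 in KO (limma adjusted p = 0.114). Bcl2a1a had 1.26 in WT (limma adjusted p = 0.0658) and 1.31 in KO (limma adjusted p = 0.114). Of the gained regions of this list, Bcl2a1a held 3 in WT and 3 in KO, and Bcl2a1b 2 and 2. Bcl2a1d held 1 in WT and 1 in KO. These Bcl2a1 genes are near-identical copies, so the placing of their reads is uncertain. Most of the 9 KO gains of the list lay at them.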

How the data were processed

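ATAC-seq peaks of 8 libraries of mouse macrophages were used, as position lists deposited by the authors. The tools were MACS2 2.1.1, Bowtie2 2.3.0, bcl2fastq 2.17.1.14 and Picard, on the GRCm38 build, per the submitters' processing notes; their settings, the duplicate handling and the peak threshold are not given in these sources. The lists hold 1 line per peak with no count, score or p-value, so they give no depth and no interval.

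Peaks on 21 chromosomes were merged (at least 1 shared base) and each region went to the closest RefSeq gene body within 100 kb, among 21887 protein-coding genes; of several genes overlapped, the one with more bases won. Start sites and promoters came from the RefSeq GRCm38.p6 promoter table. Called width was the number of bases of a region inside peaks of a library. limma 3.58.1 in R 4.3.3 (trended, moderated, Benjamini-Hochberg over all features) tested the log2 width of regions called in all 8 libraries and log2(called bases + 200) of genes with a mean of at least 200 bases, each library centred on its median, all 4 groups in 1 fit. Regions per gene were compared by an exact permutation test (70 arrangements). The limma procedure was tested on simulated data.

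All regions gained or lost at the 10 genes are named, with the start-site regions and the regions called in all libraries that lay nearest the threshold. Some other regions called in all libraries are named too. The genes and lists were chosen with earlier results of these data known. Alternatives were other pseudocounts, filters, centring, distances, overlaps and list lengths, a replicate block, and leaving out each library.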

Additional observations from a re-analysis of the deposited data

How the results depend on the processing

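The LPS gains in KO kept a count within 1.5 times of 12 at the 10 genes under all 5 settings that kept every library (9 to 13). Among the widest peaks alone, with 47 regions at these genes, the counts (with the share of all regions) were 8 gained in WT (4.61%), 1 lost in WT (3.99%), 0 lost in KO (3.28%), 0 called only in WT untreated (2.12%), 0 only in KO untreated (2.24%), 1 only in WT with LPS (2.95%), 1 only in KO with LPS (2.81%) and 4 gained in both genotypes (1.27%). Requiring 50% of a region to be covered gave 2 lost in WT (7.24%) and 5 lost in KO (5.84%), equal list lengths gave 1 lost in WT (4.00%), and assignment by the nearest gene end gave 1 only in KO with LPS (2.03%). Of the 52 calls at named regions, 46 were not made among the widest peaks, 14 with 50% covered, 4 by nearest end and 2 each within 25 kb and with equal lengths.

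With 1 library left in a group the rule is looser, so counts can only stay or rise, over all regions too. Leaving out 1 library gave 21 to 28 gained (5.60% to 8.61% of all regions) and 2 to 3 lost (7.65% to 11.4%) in WT, 14 to 17 gained (3.81% to 6.98%) and 3 to 6 lost (7.08% to 10.6%) in KO, 2 to 7 only in WT untreated (4.18% to 7.32%), 3 to 5 only in KO untreated (3.56% to 6.46%), 10 to 17 only in WT with LPS (5.55% to 8.36%), 2 to 4 only in KO with LPS (3.51% to 6.55%) and 7 to 8 gained in both (1.18% to 1.65%).

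For called sequence with LPS in WT, 0 of the 10 genes passed with a pseudocount of 50 or 1000, with no filter or within 25 kb. With the replicate number as a block 0 passed as well, with an adjusted p of 0.144 for Birc3 by limma. Same-numbered libraries did not deviate together (correlations 0.017 to 0.0544 over 36009 regions), and the numbers were not taken as pairs. The sample titles do repeat a code between an untreated and an LPS library of the same genotype and number; what the code marks is not said, so whether such libraries share an animal is unknown. At the other results the block changed no call at these genes. Peak width gave 0 calls at these genes under every setting.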

Other observations

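The genes whose called sequence ran most like the sum over the 10 genes were found by Pearson correlation across the 8 libraries, among 8831 genes, as a description with no test; the libraries share their peak calling and the 4 groups. The summed called sequence of the 10 genes was 29062 and 29116 bases in WT untreated, 38737 and 34608 in WT with LPS, 27795 and 27529 in KO untreated and 30691 and 29682 in KO with LPS. The most alike were Slc10a6 (r = 0.989), Nfkb2 (0.981), Sdc4 (0.979), Aqp9 (0.97) and Tmem176b (0.967). Nfkb2, which encodes the NF-kB subunit p100, held 910 and 849 bases in WT untreated, 1394 and 1225 in WT with LPS, 781 and 745 in KO untreated and 1050 and 926 in KO with LPS. Sdc4, the gene of the cell surface proteoglycan syndecan-4, held 849 and 1065 bases in WT untreated, 2768 and 1967 in WT with LPS, 977 and 1004 in KO untreated and 1326 and 1025 in KO with LPS.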
